A study of Mus musculus with 4 samples.

Results

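The genes described here are 10 transcription factors and effectors of the ATF4-CHOP stress response, namely Atf4, Ddit3, Atf3, Atf5, Nupr1, Trib3, Chac1, Ppp1r15a, Sesn2 and Ddit4. The set was chosen with earlier results of these data known. Its probes were taken by name: every probe whose symbol on the platform was one of these 10 was used. This gave 10 probes, 1 per gene. The array holds 23473 gene probes, of which 20690 carry a symbol, for 19321 named genes in all. RNA came from E0771, a breast carcinoma line of the mouse. The cells were given vehicle or IL-26, a recombinant human cytokine whose gene mice lack, at 30 ng/ml. They were harvested at 6 or 24 h, and the labels name no other agent and no genetic change in any of the 4 groups. All cells grew in RPMI1640 with fetal bovine serum. Each group was 1 array, from 1 cell line, so a difference between any 2 arrays has no replicate check.

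The pathway works through translation. When unfolded protein in the endoplasmic reticulum (ER), lack of amino acids, viral RNA or lack of haem activates one of the eIF2 kinases, phosphorylated eIF2 slows protein synthesis in general while the mRNA of ATF4 is translated more. ATF4 then binds DNA with partners of the C/EBP family and switches on genes for amino acid supply and for further regulators, among them Ddit3 (which encodes CHOP), Atf3 and Trib3. CHOP adds effectors such as Ppp1r15a (GADD34), which brings a phosphatase to eIF2 and so closes the loop. In tumour cells the pathway is known both for adaptation to poor supply and, when it persists, for cell death. Arrays measure mRNA only. ATF4 protein, which is set largely by translation, was not measured here.

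The promoters of the members were searched for the elements through which these factors are known to act. RefSeq promoter windows of 300 bases (250 before and 50 from the start site on, build GRCm38.p6) were found for all 10 genes, as 11 windows because Atf5 has 2 start sites. The C/EBP-ATF response element was searched as TGATGNAA on both strands, and it was present in windows of 4 of the 10 genes (Atf3, Chac1, Nupr1 and Trib3), against 3.97% of all 32851 windows. The cyclic AMP response element TGACGTCA was present for 1 gene, Ppp1r15a, against 1.79% of all windows. The ER stress response element of ATF6 and XBP1, by its full consensus, was found in 0 of the 11 windows and in 0.119% of all. These matches describe letters in a window and say nothing of binding in these cells. The 5 windows with a match are shown 5′ to 3′ on the strand of the gene, since they belong to genes that rose from 6 to 24 h, with the matched letters in capitals. The match begins 110 bases before the start site in Atf3 and Nupr1, 193 before it in Chac1, 12 before it in Ppp1r15a and 14 after it in Trib3. In Atf3, Chac1 and Nupr1 the matched letters are the same run, and in all 4 genes with the C/EBP-ATF element they lie on the opposite strand.
Atf3, chr1:191183284-191183583, strand -: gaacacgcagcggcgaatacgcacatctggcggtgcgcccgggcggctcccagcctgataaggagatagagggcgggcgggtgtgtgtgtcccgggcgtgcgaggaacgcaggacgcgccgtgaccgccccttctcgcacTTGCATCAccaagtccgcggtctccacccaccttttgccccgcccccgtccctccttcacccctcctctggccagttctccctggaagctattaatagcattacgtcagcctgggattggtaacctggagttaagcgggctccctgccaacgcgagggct
Chac1, chr2:119350992-119351291, strand +: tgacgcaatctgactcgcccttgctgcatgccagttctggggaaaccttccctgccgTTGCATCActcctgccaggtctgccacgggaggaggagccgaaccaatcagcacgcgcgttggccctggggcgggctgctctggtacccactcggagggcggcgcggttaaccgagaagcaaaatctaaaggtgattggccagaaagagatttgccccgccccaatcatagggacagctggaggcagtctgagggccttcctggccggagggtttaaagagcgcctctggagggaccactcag
Nupr1, chr7:126625421-126625720, strand -: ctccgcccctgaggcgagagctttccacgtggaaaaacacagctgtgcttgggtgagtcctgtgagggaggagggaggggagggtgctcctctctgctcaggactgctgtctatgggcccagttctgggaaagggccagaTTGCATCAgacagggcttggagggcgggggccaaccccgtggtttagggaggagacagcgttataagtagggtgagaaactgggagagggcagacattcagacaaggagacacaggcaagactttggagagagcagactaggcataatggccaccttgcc
Trib3, chr2:152344011-152344310, strand -: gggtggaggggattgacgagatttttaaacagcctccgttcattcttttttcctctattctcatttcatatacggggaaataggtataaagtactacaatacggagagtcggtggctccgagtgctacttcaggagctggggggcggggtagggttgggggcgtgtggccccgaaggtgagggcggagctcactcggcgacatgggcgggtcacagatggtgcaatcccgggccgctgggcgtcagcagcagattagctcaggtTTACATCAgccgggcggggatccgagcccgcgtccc
Ppp1r15a, chr7:45526219-45526518, strand -: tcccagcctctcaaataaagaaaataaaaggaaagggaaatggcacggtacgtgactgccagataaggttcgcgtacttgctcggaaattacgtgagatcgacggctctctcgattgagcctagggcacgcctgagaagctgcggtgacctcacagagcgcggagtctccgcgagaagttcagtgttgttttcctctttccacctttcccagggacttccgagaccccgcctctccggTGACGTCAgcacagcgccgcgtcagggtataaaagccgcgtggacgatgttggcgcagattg

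The values below are given first as the spot intensity as scanned, and then on the normalized log2 scale, on which every difference and test was made. All 10 probes were above the detection limit on all 4 arrays, with the limit drawn 2 SD above the average blank spot, at 51.8 to 58.1. The dimmest reading of any of them was 2.86 times the limit (Atf3, vehicle at 6 h). The limit is lenient, as 32.3% to 52.1% of the negative control spots also passed it. No member spot lay next to a very bright spot (over 10000), and none was saturated. Of the epithelial markers, Krt8 (27.7 to 35.4 times the limit) and Cldn4 (5.08 to 6.56) were clear, while Krt18 (1.28 to 1.41), Cdh1 (1.21 to 1.29) and Epcam (1.12 to 1.19) lay barely above it. So did Krt7 (1.2 to 1.29), Krt14 (1.12 to 1.24), Krt19 (1.09 to 1.16), Esrp1 (1.01 to 1.06) and Krt5 (1.01 to 1.05). Mesenchymal Vim stood at 274 to 370 times the limit, Acta2 at 16 to 20.7, Twist1 at 7.13 to 12.6 and Col3a1 at 8.18 to 10.8. Pdgfrb (3.42 to 4.16) and Zeb1 (3.17 to 4.61) were also clear. In contrast, Col1a1 (1.15 to 1.27), Zeb2 (1.15 to 1.22) and Cdh2 (1.10 to 1.17) lay barely above the limit and Fn1 passed it on 3 arrays (0.994 to 1.03).

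Time in culture was the larger difference for these genes. From 6 to 24 h, 8 of the 10 members rose, 1 (Atf5) fell and 1 (Sesn2) did not pass (limma, adjusted p under 0.05 over 18375 detected genes). In the same fit 14.4% of all genes were higher and 14.3% lower. The members were chosen with earlier results of these data known, so their excess over such shares is description and no independent evidence. For the same 8 genes both 24 h arrays lay above both 6 h arrays, an arrangement found for 29.7% of all genes. At least 2-fold higher were 7 members in vehicle, where 0.816% of all genes were, and 6 members in IL-26, where 0.800% were. The vehicle pair and the IL-26 pair share no array. The median difference of the 10 members was 1.22 in vehicle and 1.11 in IL-26 on the log2 scale, beside medians of -0.01 and -0.00 over all genes. The SD of this difference over all genes was 0.27 in vehicle and 0.28 in IL-26. It was wider, at 0.41 and 0.42, among the 4197 genes whose mean signal lay within the range of the members.

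**Figure D1:**
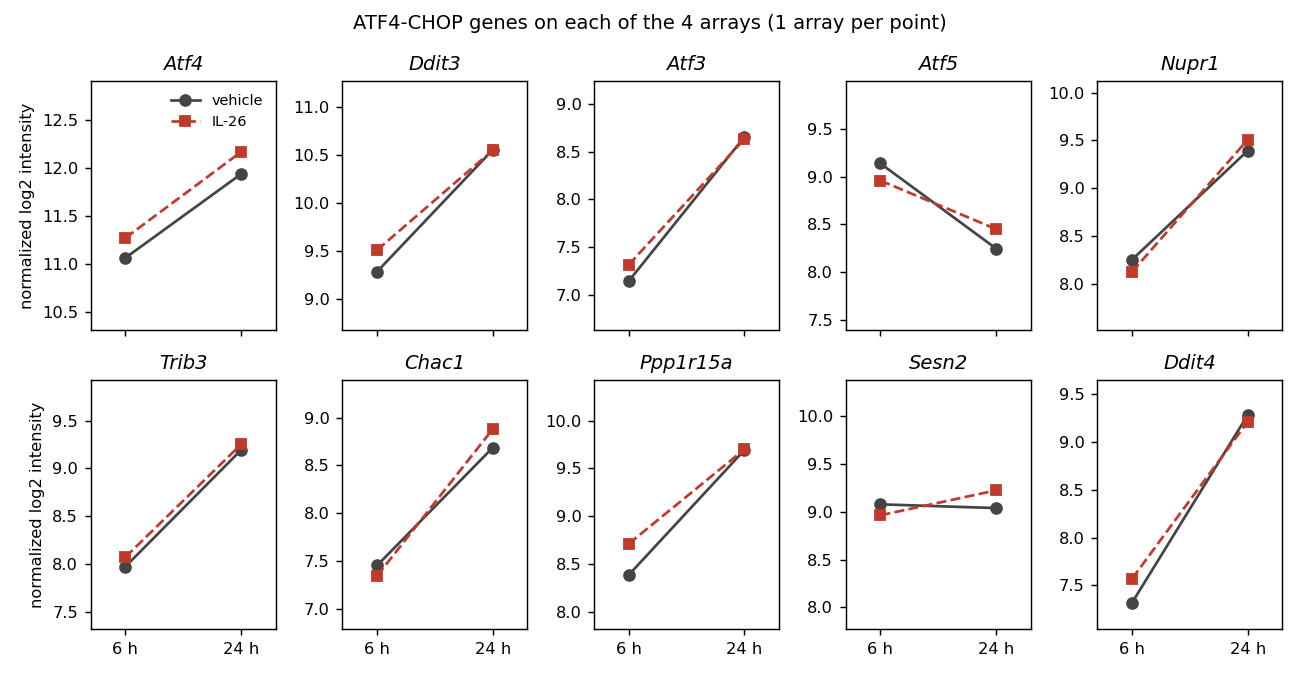
Normalized log2 intensity (y axis, each panel spanning the same number of log2 units) of the 10 genes at 6 and 24 h (x axis), with 1 point per array, vehicle as dark grey circles and IL-26 as red squares; lines join arrays of the same treatment. In 8 panels both lines climb, in that of Atf5 both fall, and in that of Sesn2 the 4 points lie between 8.96 and 9.22.

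Among the transcription factors, Atf4 had the highest readings and the smallest of the rises. At 6 h its spot read 2337 (vehicle) and 2439.5 (IL-26), at 24 h 3949.6 and 4323. Both 24 h readings lay well above the 6 h readings, with no overlap. The rise averaged over both treatments was 0.89 ± 0.11 on the log2 scale (SE, 1.85-fold, limma adjusted p = 1.4e-09), with 0.88 in vehicle and 0.90 in IL-26. Of the members that rose, Atf4 was the one that stayed under 2-fold in both treatments. Ddit3, the gene of the pro-apoptotic factor CHOP, went from 659 in vehicle to 1539, and from 708 in IL-26 to 1416. The arrays separated by time, and the rise was 1.16 ± 0.11 (2.23-fold, limma adjusted p = 1.4e-12). It was 1.27 in vehicle and 1.04 in IL-26. Ddit3 overlaps Mars1 and Mbd6 in the reference annotation, and the strand read by the probe is not stated. Mars1, which encodes methionyl-tRNA synthetase, also rose over the same interval, by 0.32 ± 0.11 (limma adjusted p = 0.027). Mbd6 changed by -0.02 ± 0.09 and did not pass (limma adjusted p = 0.88).

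Atf3, a factor of the same bZIP class that is induced by ATF4 and by many other stresses, was the dimmest of the 10 at 6 h relative to the limit. Vehicle and IL-26 gave 148 and 156 at 6 h, against 416 and 382 later. The 24 h readings were each higher relative to the limit (7.16 and 7.15 times) than those at 6 h. Its rise was 1.41 ± 0.09 (2.66-fold, limma adjusted p = 2.8e-19), with 1.51 in vehicle and 1.31 in IL-26. In the authors' own value table, taken to log2 here without an offset, these were 1.98 and 1.74. In that table the difference of Ddit4 in vehicle was 2.43 and that of Chac1 in IL-26 was 1.98. Nupr1, a small chromatin-associated protein induced under stress, stood at 323 (vehicle) and 270 (IL-26) early and at 692 and 702 late. The times did not overlap, and the rise was 1.26 ± 0.10 (2.40-fold, limma adjusted p = 4.8e-15), with 1.14 in vehicle and 1.38 in IL-26. Nupr1 overlaps Gm39087 in the annotation, for which there was no value here.

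Atf5 moved the other way. This factor is closely related to ATF4 and its mRNA, too, is translated more when eIF2 is phosphorylated. Its probe gave 595 (vehicle) and 486 (IL-26) at the earlier time and 316 and 337 at the later, so that both later arrays lay below both earlier ones. The fall was -0.70 ± 0.10 (1.62-fold lower, limma adjusted p = 2.7e-07), with -0.89 in vehicle and -0.51 in IL-26. The platform lists this probe against a non-coding RefSeq record of Atf5, and whether it also reads the coding transcript was not tested. The gene overlaps Nup62 and Il4i1b in the annotation, whose own probes had time differences of 0.03 ± 0.11 and 0.09 ± 0.03. The small rise of Il4i1b passed (limma adjusted p = 0.016) and the difference of Nup62 did not (0.89).

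The effectors rose with the factors, with 1 exception. Trib3, a pseudokinase induced by ATF4 and CHOP that binds ATF4 and AKT, went from 264 to 603 in vehicle and from 260.1 to 588 in IL-26. Its differences in vehicle (1.22) and IL-26 (1.18) were nearly the same, and the mean was 1.20 ± 0.10 (2.29-fold, limma adjusted p = 8.2e-15). Chac1, an enzyme that breaks down glutathione, went from 184 to 424 in vehicle and from 159 to 452 in IL-26. The rise was 1.38 ± 0.09 (2.61-fold, limma adjusted p = 3.4e-18), at 1.23 in vehicle and 1.53 in IL-26. Ppp1r15a, the phosphatase subunit GADD34 that turns eIF2 phosphorylation off, went from 355 to 840.4 in vehicle and from 407 to 786 in IL-26. It rose by 1.15 ± 0.11 (2.21-fold, limma adjusted p = 5.4e-13), past 2-fold in vehicle (1.31) and just short of it in IL-26 (0.99). Ppp1r15a overlaps Tulp2 in the annotation, whose own time difference of 0.03 ± 0.03 did not pass (limma adjusted p = 0.58).

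Ddit4 and Sesn2, whose products both restrain the growth kinase complex mTORC1, parted. Ddit4 (REDD1) went from 167 to 639.96 in vehicle and from 185 to 574 in IL-26, the widest separation of the 10 genes. Its rise was 1.80 ± 0.10 (3.48-fold, limma adjusted p = 3.5e-22), at 1.96 in vehicle and 1.64 in IL-26. Sesn2, a stress-induced leucine sensor, went from 574 to 541 in vehicle and from 486 to 579 in IL-26. These 4 readings overlapped between the times, and the difference of 0.11 ± 0.11 did not pass (limma adjusted p = 0.505), with -0.04 in vehicle and 0.26 in IL-26. Sesn1 and Sesn3, the other sestrins, had differences of 0.13 ± 0.07 and 0.01 ± 0.03, and neither passed. They were named after their values were seen.

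**Figure D2:**
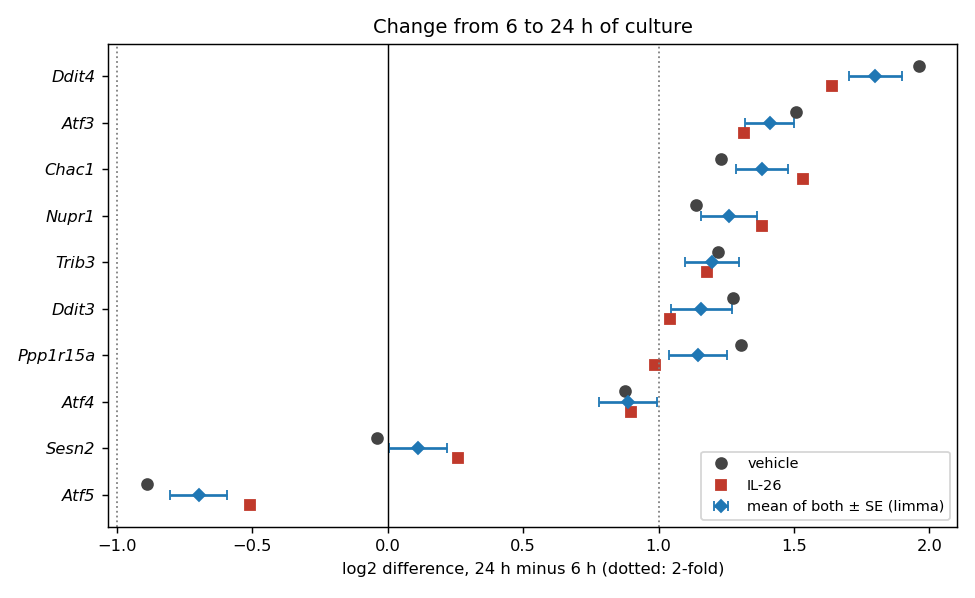
Log2 difference between 24 and 6 h (x axis) for each gene (y axis), in vehicle (dark grey circles) and IL-26 (red squares), with the mean of both and its SE from the fit (blue diamonds); dotted lines mark 2-fold. The means run from -0.70 for Atf5 to 1.80 for Ddit4, and the vehicle and IL-26 points lie on the same side of 0 for every gene but Sesn2.

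These tests rest on few arrays. With 4 arrays and 3 coefficients the fit leaves 1 degree of freedom to each gene and takes most of its variance from other genes of like signal, and an exact permutation of 2 against 2 arrays could not give a p below 0.333. With the intensity measured around each spot taken as its background, the 8 rises and the fall of Atf5 kept their sign (-0.51 to 1.33 over the members) but none of the 10 passed, and nor did any gene on the array (0 of 18375, with 1060 at an unadjusted p under 0.05). In a culture of cells, a rise in every cell and a rise in the share of cells that express a gene cannot be told apart. As lists, the markers of other cell types had medians near 0 over the same interval, while single genes of them passed the test. Of 8 adipocyte and muscle markers, 5 were above the limit on all arrays and Adipoq, Lep and Myh1 on none. Plin1 (1.22 to 1.24 times the limit), Ckm (1.17 to 1.28), Myog (1.05 to 1.14) and Acta1 (1.04 to 1.09) lay barely above it. Of the 5, Fabp4 rose (2.40 to 2.56 times the limit at 6 h and 5.55 to 5.70 at 24 h) and 4 did not pass (median 0.02), and the summed intensity of the list over the blank spots was 115 to 133 at 6 h and 290.2 to 303 at 24 h. Of 11 leukocyte markers, 8 were above the limit on all arrays, with Cd68 at 5.73 to 8.10 times the limit, Lyz2 at 2.26 to 3.54, Cd14 at 1.99 to 2.11, Csf1r at 1.92 to 2.16, Ptprc at 1.04 to 1.09 and Itgam on none. Of the 10 tested, Lyz2 fell (-0.51 ± 0.08, limma adjusted p = 3.2e-07) and 9 did not pass (median -0.03), and the sum was 629 to 697 at 6 h and 511 to 546 at 24 h. Of 7 endothelial markers, 4 were above the limit on all arrays, Kdr fell (-0.19 ± 0.05) and 6 did not pass (median -0.03), with a sum of 72.3 to 81.3 at 6 h and 47.9 to 53.6 at 24 h. The part of such cells in the rises was not tested.

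In the study, the arrays with and without IL-26 served a search for proteins with which IL-26 interacts in breast cancer cells. The paper also reports that IL-26 lowered the mRNA of DDIT3, ATF3 and ATF4 in cells given gefitinib, E0771 among them. No array here is labelled with gefitinib, so the values below do not bear on that result. Given IL-26, the 10 genes differed little from vehicle. At 6 h, 6 of the 10 were higher than vehicle and at 24 h 7 were, and at neither time did any differ by 1.5-fold (0 of 10 at each), which 0.0816% of all genes did at 6 h and 0.0490% at 24 h. Averaged over both times, 0 of the 10 passed the test, where 0.430% of all genes did (28 higher and 51 lower, limma adjusted p under 0.05), and 1 member had an unadjusted p under 0.05, as had 868 genes or 4.72% of all. Their median effect was 0.08, from -0.01 (Nupr1) to 0.22 (Atf4), beside a median of 0.00 over all genes. With the arrays scaled to 1 median in place of quantile normalization, the effects of Atf5, Chac1 and Sesn2 changed sign and the highest, that of Atf4, was 0.15.

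Above vehicle at both times were 3 of the 10, Atf4, Trib3 and Ppp1r15a, where 25.3% of all genes were, and with the arrays scaled to 1 median the 24 h value of Ppp1r15a lay below 0. Atf4 differed by 0.21 (1.16-fold) at 6 h and 0.23 (1.17-fold) at 24 h. Its averaged effect was 0.22 ± 0.11 (SE, limma adjusted p = 0.999), and it was the member with an unadjusted p under 0.05. Differences at least as large as these in size were found for 4.30% of all genes at 6 h and 4.16% at 24 h. Ppp1r15a had the largest difference of the 10 at 6 h, 0.33 (1.25-fold), a size reached by 0.909% of all genes, and 0.01 at 24 h. For Trib3 the values were 0.10 and 0.06. The shares given are over all genes, dim ones included, where the SD was 0.095 at 6 h and 0.101 at 24 h. Among the 4197 genes of like signal the SD was wider, at 0.14 and 0.15.

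Opposite signs at the 2 times were found for 7 of the 10, and for 52.6% of all genes. Ddit3 (0.23 and -0.00), Atf3 (0.17 and -0.02) and Ddit4 (0.25 and -0.07) were higher with IL-26 at 6 h and near or below vehicle at 24 h. Atf5 (-0.18 and 0.20), Chac1 (-0.11 and 0.19), Nupr1 (-0.13 and 0.12) and Sesn2 (-0.11 and 0.19) were lower with IL-26 at 6 h and higher at 24 h. Among the 4197 genes with a mean signal between those of the dimmest and brightest member, the SD of the IL-26 difference was 0.14 at 6 h and 0.15 at 24 h.

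**Figure D3:**
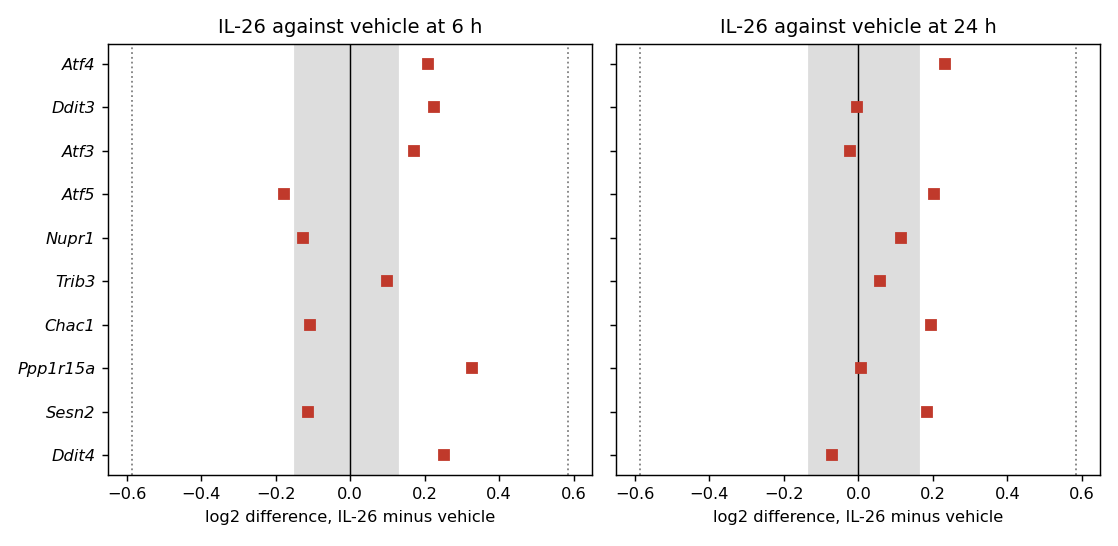
Log2 difference between IL-26 and vehicle (x axis) for each gene (y axis) at 6 h (left) and 24 h (right), 1 array against 1 array per point; the grey band is the median ± 1 SD over the 4197 genes of like signal and the dotted lines mark 1.5-fold. All points lie within the dotted lines, the farthest being Ppp1r15a at 0.33 at 6 h.

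The arrays of the 2 treatments also differed in the light around bright spots. For gene spots above 1000, the local background was 61.9% and 57.8% of the spot intensity (median) on the vehicle arrays at 6 and 24 h, and 30.5% and 34.3% on the IL-26 arrays. Around the Atf4 spot the vehicle arrays read 1912 at 6 h and 2709 at 24 h, the IL-26 arrays 1162 and 1610.0. Around the Trib3 spot the vehicle arrays read 258 and 483, the IL-26 arrays 112 and 177. When this local background was subtracted, Atf4 differed by 0.90 at 6 h and 0.72 at 24 h and Trib3 by 1.11 and 0.91, while Ddit3 lay below vehicle (-0.66 and -0.71), and 5 members were past 1.5-fold at 6 h and 4 at 24 h. No member passed the test for IL-26 under that setting either. The part of the local background in the small differences above was not tested.

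The rest of the pathway gives the setting in which the members moved. The gene lists used for it were also chosen with earlier results of these data known. Over all 18375 genes tested, 14.4% rose and 14.3% fell with time, the shares beside which each list stands. Upstream, the eIF2 kinases and the genes of the eIF2 cycle were for the most part not past the test over time: of 22 tested, 2 rose, 4 fell and 16 did not pass, with a median of 0.06. Those that rose were Eif2ak2, the RNA-activated kinase PKR (0.37 ± 0.08), and Gcn1, a cofactor of the amino acid sensor GCN2 (0.15 ± 0.05). Both calls were lost without the trend of variance on intensity (limma adjusted p = 0.19 and 0.205), and that of Gcn1 also in the deposited values (0.0502) and without the filter on dim genes (0.0869). The difference of Eif2ak2 was 0.63 in vehicle and 0.11 in IL-26. The eIF2 beta subunit gene Eif2s2 (-0.76 ± 0.10), Dnajc3, an ER co-chaperone that inhibits PERK and PKR (-0.64 ± 0.09), and Impact, an inhibitor of GCN2 (-0.47 ± 0.10), were the lowest of the 4 that fell. Eif2ak3 (PERK) and Eif2ak4 (GCN2) had differences of 0.22 ± 0.10 and 0.11 ± 0.09, named after their values were seen, and neither passed (limma adjusted p = 0.081 and 0.457).

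Among possible bZIP partners of ATF4, CHOP and ATF3, 7 of 24 rose, 4 fell and 13 did not pass (median 0.02). The small MAF factors Mafk (1.27 ± 0.08) and Maff (1.17 ± 0.08) and the C/EBP factor Cebpb (0.68 ± 0.11) rose most, and the AP-1 subunits Jund (-0.65 ± 0.09) and Jun (-0.40 ± 0.11) and the third small MAF factor, Mafg (-0.37 ± 0.09), were the lowest. Of 19 paralogs of the members, 4 rose, 1 fell and 14 did not pass (median 0.03). The ER-bound factor gene Atf6 (0.64 ± 0.08), the second glutathione-degrading enzyme Chac2 (0.49 ± 0.09) and Atf2 (0.42 ± 0.07) were the highest, and the pseudokinase gene Trib1 fell (-0.55 ± 0.08) where Trib3 rose. The constitutive phosphatase subunit gene Ppp1r15b, partner of the same phosphatase as Ppp1r15a, had -0.07 ± 0.08 and Trib2 0.07 ± 0.04, both named after their values were seen. For both lists, the shares over all genes were 14.4% higher and 14.3% lower.

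Downstream, 14 of 25 targets of ATF4 and CHOP in cell death, secretion and autophagy rose, 4 fell and 7 did not pass, with a median of 0.33. The highest were Gabarapl1, an autophagosome protein (1.16 ± 0.11), the secreted peptide gene Adm2 (1.16 ± 0.07) and the ER oxidase Ero1a, a CHOP target (0.90 ± 0.10). Car6, a carbonic anhydrase of which a CHOP-induced form is known in mouse cells, was the lowest (-1.80 ± 0.11), followed by Trib1 and the autophagy gene Atg5 (-0.48 ± 0.09). Of 21 ATF4 targets in amino acid synthesis and transport, 10 rose, 2 fell and 9 did not pass (median 0.15). The glycine transporter gene Slc6a9 (0.95 ± 0.11), the aspartate aminotransferase Got1 (0.68 ± 0.11) and the mitochondrial folate enzyme Mthfd2 (0.66 ± 0.11) were the highest, and Aldh1l2 (-0.55 ± 0.08) and the leucine transporter gene Slc7a5 (-0.47 ± 0.11) fell. Asns, which encodes asparagine synthetase and is a standard ATF4 target, did not pass (-0.13 ± 0.11, limma adjusted p = 0.405, named after its value was seen). Of 13 genes of aminoacyl-tRNA synthesis and export 5 rose, 0 fell and 8 did not pass (median 0.21), led by Cars (0.68 ± 0.11), Nars (0.64 ± 0.11) and Lars (0.33 ± 0.10). The shares over all genes, for these lists too, were 14.4% higher and 14.3% lower.

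Most genes of the other arms of the unfolded protein response fell over the same interval. Over all genes, 14.3% fell and 14.4% rose. Of 22 genes of the ATF6 and XBP1 arm, 16 fell, 3 rose and 3 did not pass, with a median of -0.52. The calcium-binding chaperone Calr (-1.39 ± 0.11) and the protein disulphide isomerases Pdia3 (-1.24 ± 0.11) and Pdia4 (-1.12 ± 0.11) were the lowest. Those that rose were Herpud1, an ER-associated degradation factor that ATF4 also induces (1.21 ± 0.10), the transcription factor gene Xbp1 (1.04 ± 0.11) and the ubiquitin ligase gene Syvn1 (0.26 ± 0.09), whose call was lost without the trend (limma adjusted p = 0.0756) and without the filter on dim genes (0.0537). Atf6 itself was not in this list but among the paralogs above, where it rose (0.64 ± 0.08). Of the mTORC1 regulators beside Ddit4 and Sesn2, 6 of 25 rose and 7 fell (12 did not pass, median -0.07). The GATOR1 subunit genes Nprl3 (0.59 ± 0.10) and Nprl2 (0.51 ± 0.09), which restrain mTORC1 when amino acids are short, and its activator Rheb (0.46 ± 0.11) were the highest, and Rptor, its scaffold (-0.58 ± 0.10), Flcn (-0.43 ± 0.11) and Fnip1 (-0.33 ± 0.09) the lowest. The calls of Flcn and Fnip1 were lost without the trend (limma adjusted p = 0.0804 and 0.196), and the difference of Fnip1 was -0.10 in vehicle and -0.56 in IL-26. For IL-26, 0 genes passed the test (limma) in each of the 8 lists, and at an unadjusted p under 0.05 there were 0 to 2 per list of 13 to 25 genes, beside 4.72% of all genes.

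**Figure D4:**
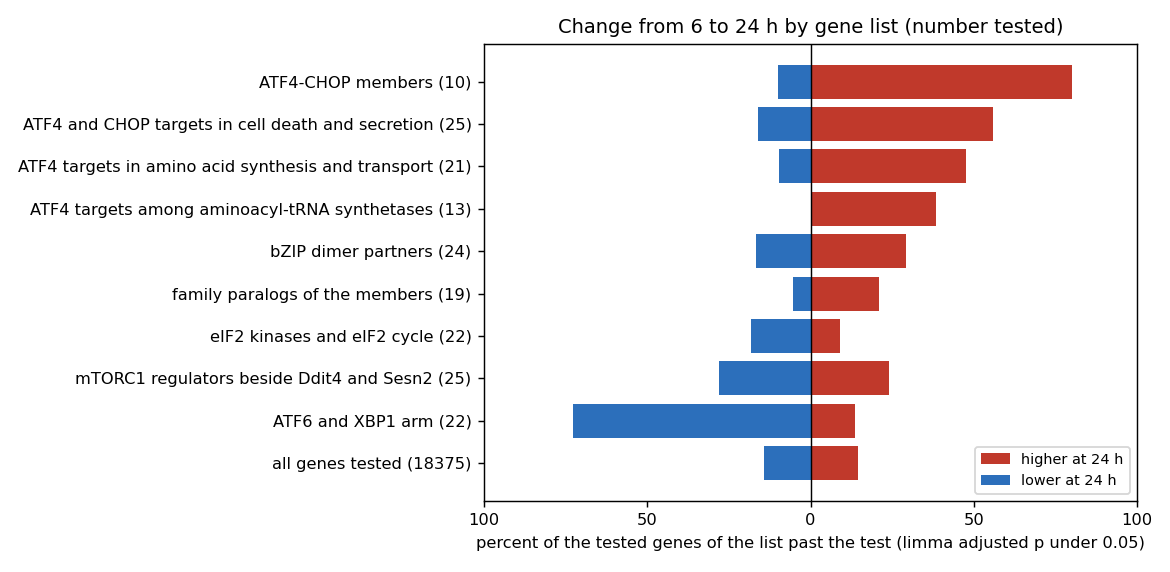
Percent of the tested genes of each list (y axis, number tested in brackets) that were higher (red, to the right) or lower (blue, to the left) at 24 h than at 6 h (x axis, limma adjusted p under 0.05), with all 18375 genes in the bottom row. The members stand at 8 of 10 higher and the ATF6 and XBP1 arm at 16 of 22 lower. All genes stand at 14.4% higher and 14.3% lower.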

How the data were processed

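Total RNA of 4 E0771 samples was amplified, labelled with Cy5 and hybridised to 1-colour 3D-Gene mouse chips. The deposited scanner files hold the spot and local background intensity of 27456 spots per array, with nothing subtracted or normalized per the file headers. The authors' own value table gives intensity scaled to an array median of 25.0, and how this was done is not given in the sources used here. Spot intensities were corrected with normexp on 384 blank spots (offset 50), log2 transformed and quantile normalized, and probes of a gene were averaged (limma 3.58.1, R 4.3.3). The offset draws differences of dim genes towards 0. Genes above the blank mean plus 2 SD on at least 1 array (18375) entered an additive limma model of time and treatment (eBayes with trend, prior of 53.5 degrees of freedom, Benjamini-Hochberg). Comparisons of 1 array with 1 array have no test. The members and gene lists were chosen with earlier results of these data known. Named from each pathway list were up to 3 genes higher and 3 lower with time among those that passed, by size. Other names from these lists are marked as chosen later, apart from genes that overlap a member. The epithelial, mesenchymal, and adipocyte and muscle markers on the array are all named. Of the leukocyte and endothelial markers only some are named, by no single rule. The labels do not say whether cultures were separate, so p-values speak only for these 4 arrays, whose number limits precision.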

Additional observations from a re-analysis of the deposited data

Results flagged for a closer look

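For 7 of the 10 genes the IL-26 difference had opposite signs at the 2 times, and 52.6% of all genes did. The difference at 24 h minus that at 6 h, on the log2 scale, was 0.38 for Atf5, 0.30 for Chac1, 0.30 for Sesn2, 0.24 for Nupr1, -0.19 for Atf3, -0.23 for Ddit3 and -0.32 for Ddit4. None of these was tested, as each group has 1 array. Over the 4197 genes of like signal the SD of this quantity was 0.21. Among the 3 genes that did not change sign, Ppp1r15a had -0.32.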

How the results depend on the processing

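Among the members, the 8 rises and 1 fall with time passed in every alternative but the local background, where 0 rose and 0 fell by the test with signs kept. There 0 genes were higher and 0 lower with time over all genes, the time effects of Eif2s2 (0.35), Impact (0.53) and Rptor (0.42) changed sign, and the members past 1.5-fold with IL-26 numbered 5 at 6 h and 4 at 24 h. The averaged IL-26 effects that changed sign there were those of Ddit3 (-0.69), Atf3 (-0.43), Chac1 (-0.18), Ppp1r15a (-0.46) and Nupr1 (0.25). With median scaling they were those of Atf5 (-0.041), Chac1 (-0.0026) and Sesn2 (-0.015). Without the trend of variance on intensity 1757 genes were higher and 1684 lower with time, beside 2655 and 2629 as reported, and 0 and 0 with IL-26 (limma, 709 at an unadjusted p under 0.05), beside 28 and 51. For IL-26 the genes higher and lower were 109 and 83 with median scaling, 9 and 22 with an offset of 16, 277 and 10 with the local background, 2 and 1 without the filter on dim genes, and 15 and 68 in the deposited values. A gene at the same value on all arrays was left out in an alternative chosen after seeing the data, which changed no call of the members. The cause of these changes was not tested. Leaving out an array leaves no residual degree of freedom, so it was not run.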
